A study of Mus musculus with 10 samples.

Results

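Corticotropes are the anterior pituitary cells that make adrenocorticotropic hormone (ACTH) from its precursor, the product of Pomc. They were selected on measured transcripts, as the droplet barcodes with unique molecular identifiers (UMIs) of at least 2 of 6 marker genes, namely Tbx19, Crhr1, Avpr1b, Cdh8, Khdrbs2 and Ptprz1. In addition, Pomc had to hold at least 1% of a barcode's UMIs, and the barcode could carry no UMI of 7 excluded genes, which were Pax7, Oacyl and Pcsk2 for melanotropes, Gnrhr and Ghrhr for other hormone cells, and C1qa and C1qb for macrophages. The rule kept 109 of 22325 barcodes, or 0.488%, from 10 libraries. The 6 markers, Pomc and the 7 excluded genes therefore describe how the cells were chosen, and none of them was tested.

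The study profiled whole pituitaries of CD1 mice by single-cell RNA-seq on 2 platforms, 10X Genomics with 2 libraries and Drop-seq with 8. At 8 weeks there were 3 WT female and 3 WT male libraries, 1 of each sex on 10X and the others on Drop-seq, together with 1 Drop-seq library of mt/hGRF females. These transgenic mice carry a human growth hormone-releasing hormone cDNA under the mouse metallothionein promoter, which is active in many tissues. At 13 weeks there were 1 virgin and 2 lactating WT female libraries, all Drop-seq. The 8-week mice were sexually naive, although their labels leave the physiological condition undetermined. Each 8-week WT Drop-seq library pooled 2 mice, the virgin library came from 1 mouse, the lactating libraries came from 1 and 2 mice, and the mt/hGRF library pooled more than 1 mouse. All glands were dissociated without enzymes. P-values measure the spread between these libraries, which may be partly technical.

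In the stress axis, hypothalamic CRH and vasopressin act on corticotropes through the receptors Crhr1 and Avpr1b, ACTH released from these cells drives the adrenal cortex, and glucocorticoids feed back on the pituitary through the glucocorticoid receptor Nr3c1. The T-box factor Tbx19 (Tpit) switches on Pomc in both Pomc lineages of the gland. Melanotropes of the intermediate lobe are the other Pomc lineage. They depend on Pax7 and use the convertase Pcsk2 to cut the precursor further, to melanocyte-stimulating hormone. Neurod1, a basic helix-loop-helix factor, binds E-boxes and is known to act on Pomc in corticotropes.

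The promoters of the hormone precursor gene and of its lineage factor are shown because the rule and the comparisons below turn on them. Each line gives the 250 bases before the RefSeq start site, 5′ to 3′ on the gene's own strand, from assembly GRCm38.p6. Capitals mark E-boxes, searched as CANNTG, which reads the same on both strands. Pomc lies at chr12:3954695-3954944 on the plus strand and Tbx19 at chr1:165160774-165161023 on the minus strand.
Pomc: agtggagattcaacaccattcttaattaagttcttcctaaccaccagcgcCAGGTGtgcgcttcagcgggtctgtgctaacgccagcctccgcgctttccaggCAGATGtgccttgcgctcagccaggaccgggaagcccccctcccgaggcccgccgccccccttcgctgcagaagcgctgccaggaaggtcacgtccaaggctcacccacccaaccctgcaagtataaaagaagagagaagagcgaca
Tbx19: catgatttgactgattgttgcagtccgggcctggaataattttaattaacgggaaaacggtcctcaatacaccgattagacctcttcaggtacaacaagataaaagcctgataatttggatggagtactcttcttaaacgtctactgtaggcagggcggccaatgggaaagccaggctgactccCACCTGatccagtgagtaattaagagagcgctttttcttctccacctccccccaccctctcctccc
The Pomc window held 2 E-boxes, starting at positions -200 and -147 from the start site. Tbx19 held 1 at -66, and a second at position 8 within the transcript. The windows searched ran to 50 bases past the start. E-boxes are common, and 72.31% of 32851 RefSeq promoter windows of this length held at least 1. The letters AAAGGTCA, TCACACC and TAATCC, searched on both strands, were in neither window, and 1.507%, 3.979% and 7.062% of all windows held them. Among genes tested against melanotropes, the windows of genes higher in corticotropes held an E-box in 61.34% of cases, against 66.03% for the genes lower and 61.19% for all tested.

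The markers were sparse in single barcodes. Of the 109 corticotropes, 69 carried UMIs of 2 of the 6 markers, 26 of 3, 8 of 4, 4 of 5 and 2 of 6. Tbx19 was seen in 56.9% of them and Crhr1 in 46.8%. Cdh8, a cadherin, was seen in 44.0%, Ptprz1, a receptor-type tyrosine phosphatase, in 40.4%, Avpr1b in 34.9% and Khdrbs2, an RNA-binding protein, in 33.9%. Tbx19 and Avpr1b were seen more often on Drop-seq than on 10X. Tbx19 had a UMI in 31.25% of 32 10X members and 67.5% of 77 Drop-seq members. For Avpr1b these values were 9.38% and 45.5%. Khdrbs2 went the other way, in 16 of 32 on 10X and 21 of 77 on Drop-seq. In all, 73 members carried a UMI of Crhr1 or Avpr1b, 16 carried both receptors, and 41 carried Tbx19 with a receptor. A further 15 were chosen without Tbx19 or either receptor, on Cdh8, Khdrbs2 and Ptprz1 alone. Among all other barcodes, Ptprz1 was seen in 2.03%, Tbx19 in 1.54%, Khdrbs2 in 0.756%, Crhr1 in 0.473%, Cdh8 in 0.297% and Avpr1b in 0.252%.

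Just outside the rule lay 329 barcodes that met every other part of it with 1 marker only. Another 13 had 2 markers but too little Pomc, and 40 were held back by an excluded gene. Of those 40, Pcsk2 was seen in 29, Oacyl in 14, Pax7 in 9, Gnrhr and Ghrhr in 7 each, and C1qa and C1qb in 1 each. No pair of member barcodes in a library lay within 1 base of each other. The 10X libraries shared 5 kept barcodes and Drop-seq pairs at most 1.

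Pomc ran from 1.03% to 30.04% of UMIs over the members, with a median of 3.34%. It was under 2% in 25 members, 2 to 5% in 46, 5 to 10% in 17 and 10% or more in 21, 6 of which reached 20%. Summed over members, Pomc was 5.18% of UMIs in the 10X female library and 6.02% in the 10X male. It was 13.8% in mt/hGRF females, 6.81% in virgin females, and 4.33% and 20.9% in the 2 lactating libraries. In the 8-week Drop-seq libraries it was 3.13% and 5.04% in females and 3.91% and 7.23% in males. Melanotropes, taken as barcodes with at least 2 of Pax7, Oacyl and Pcsk2 with the same Pomc limit and no UMI of Crhr1, Avpr1b, Cdh8 or of the 4 excluded genes of other cell types, lay between 8.37% and 25.8%. Corticotropes were below melanotropes in 8 of 10 libraries. The exceptions were the mt/hGRF library, at 13.8% against 13.3%, and the second lactating library, at 20.9% against 17.1%. In the mt/hGRF library 3 of 9 members held 10% or more and carried the pooled value, while the median member held 2.0%. In macrophages, barcodes with at least 2 of C1qa, C1qb and C1qc that should make no Pomc, it was 0.134% to 0.819% in the 8 libraries of virgin or 8-week mice, and 1.35% and 1.17% in the lactating ones. In the lactating libraries the pooled macrophages thus lay above the 1% limit of the rule, and the source of their Pomc was not tested. Many barcodes elsewhere met that limit as well. It was met by 1447 of 1621 kept barcodes in the 10X female library, 3351 of 5253 in the second lactating and 708 of 2768 in the mt/hGRF library. Barcodes outside the rule with at least 1500 UMIs, melanotropes included, pooled 499 Pomc UMIs per 10000. Members under 1500 UMIs pooled 430.

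**Figure D1:**
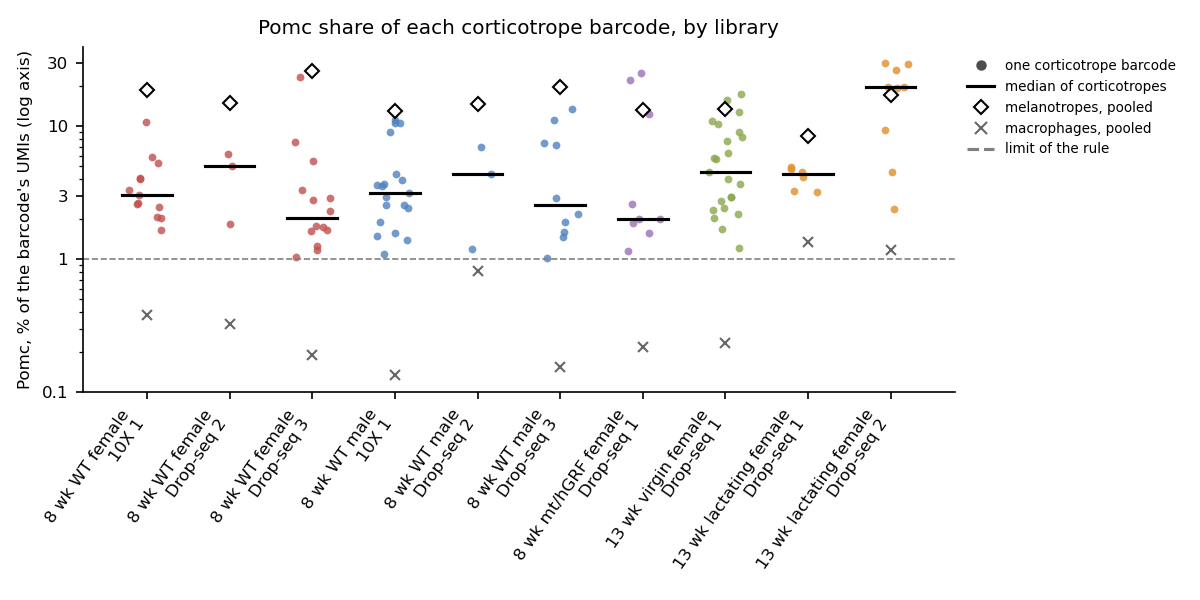
Pomc as percent of a barcode's UMIs (log axis) for each of the 109 corticotropes, by library; points are barcodes, bars mark the median of a library, diamonds and crosses the pooled melanotropes and macrophages, and the dashed line the 1% limit. The median over all members is 3.34%, and the second lactating library stands highest, with 6 of its 9 members at 10% or more.

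The members differed with depth. Their median was 1417 UMIs and 757 genes, with a range of 320 to 7942 UMIs. The 53 members with at least 1500 UMIs had a median Pomc of 5.73%, and the 56 shallower ones 2.49%. Of the deeper members, 26 carried 3 or more markers, against 14 of the shallower. Pooled over libraries, Pcsk1n, the inhibitor of the convertase Pcsk1, stood at 26.4 per 10000 UMIs in the deeper members and 7.68 in the shallower. The granin Scg2 stood at 28.5 and 12.8. Ribosomal protein genes took 5.08% and 1.31% of UMIs, mitochondrial genes 4.42% and 1.98%. The nuclear RNA Malat1 went the other way, at 398 per 10000 in the deeper members and 1464 in the shallower, and Gh fell from 364 in the shallower to 141 in the deeper. Within libraries, Pcsk1n, Scg2 and Pomc were each higher in the deeper members in 9 of 10, and Malat1 was lower in 8 of 10. The exceptions for Malat1 were the 2 libraries with 3 members each. The rule asks for UMIs of 2 rare genes, and members were deeper than the rest. Their mean was 1315 to 3110 UMIs by library, against 740 to 1681 for the rest and 910 to 3281 for melanotropes. The part of depth in the results was not tested beyond the depth-restricted fits given with them.

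**Figure D2:**
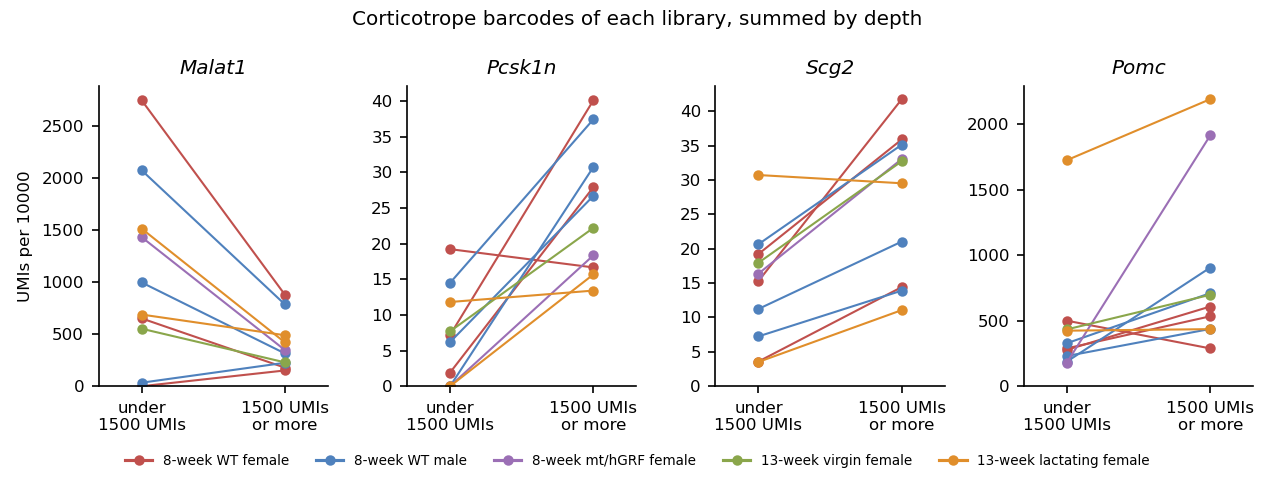
Levels of Malat1, Pcsk1n, Scg2 and Pomc (UMIs per 10000) in the corticotropes of each library, summed over barcodes under 1500 UMIs and over those with 1500 or more; a line joins the values of 1 library and colours mark the groups. Malat1 falls with depth in 8 of 10 libraries, and the other 3 genes rise in 9 of 10.

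Hormones of other lineages were found in nearly every member. A Gh UMI was present in 108 and a Prl UMI in 100 of 109. Gh exceeded Pomc in 28 members and 5% of UMIs in 15. Per library, Gh ranged from 26.4 to 1014 per 10000 with a median of 163, against 10.3 to 443 with a median of 215 in macrophages. Prl ranged from 4.72 to 152 with a median of 71.9, against 2.79 to 398 with a median of 57.2. Both were above macrophages in 6 of 10 libraries and below them in 4. All other barcodes held more in each library, at 489 to 2171 for Gh and 110 to 1284 for Prl, though the distance was small for Gh in the second WT female library, at 1014 against 1391. That library and the second WT male, at 719, each had 3 members and stood highest for Gh. The highest ratio of corticotropes to macrophages for Prl was in the third WT female library, at 44.1 in corticotropes and 2.79 in macrophages. The remaining hormone genes were rare. Cga, the common glycoprotein subunit, was seen in 25 members, Tshb in 5, Lhb in 3 and Fshb in 1.

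To find what corticotropes share beyond the rule, UMIs were summed per library and class, and tested with edgeR's quasi-likelihood test and Benjamini-Hochberg adjustment over all genes tested. The 5 libraries with at least 10 members entered. These were, in the order in which values are given below, the 10X female, the 10X male, the virgin female, the third 8-week WT female and the third 8-week WT male library, with 13, 19, 23, 14 and 10 members. Levels are UMIs per 10000 of all UMIs of the class in that library. Fitted changes are on the log2 scale after TMM scaling, where the median over all genes was -0.13 against melanotropes.

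Against melanotropes, 336 of 1314 genes were higher in corticotropes, or 25.6%, and 306 were lower, or 23.3%, which makes 48.9% in either direction. Of the higher calls, 314 were higher in each of the 5 libraries, and of the lower calls, 96 were lower in each. Without the virgin library the lower calls fell to 194. Corticotropes were marked by Rasd1, Efemp1, Fth1, Nnat and Mt2 and by high Pcsk1n and Rab3b. In the 5 libraries tested they lacked or nearly lacked Ttn, Cacna1a, Snhg11 and Etv1, which melanotropes carried. Among barcodes under 1500 UMIs only 2 of the 336 higher calls could be tested, so most of the higher genes named here could not be checked there. Against all other barcodes of that depth Fth1 was called lower, at -1.25, and Efemp1, Nnat and Pcsk1n had the sign turned. The median over all genes in that fit was -1.39.

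Rasd1, a Ras-related protein named for its induction by dexamethasone, stood at 11.8, 2.56, 12.6, 10.8 and 6.29 against 0.348, 0.156, 0.409, 0.590 and 0.322. Its log2 change was 3.88 ± 0.35 (SE), with an adjusted p of 2.05e-18. Over all 10 libraries Rasd1 was 2.54 to 27.7 per 10000 in corticotropes and 0 to 0.818 in melanotropes, again without overlap. In GENCODE vM21 (GRCm38), Rasd1 spans chr11:59963181-59964944 on the minus strand.

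Mt2, a metallothionein, was uneven among corticotropes, at 57.3, 43.5, 48.0, 3.90 and 12.1 per 10000, while melanotropes lay between 1.22 and 2.18. Its log2 change was 3.23 ± 0.37. Fth1, the ferritin heavy chain, was 37.8 to 79.7 against 3.12 to 4.82, and the imprinted gene Nnat was 54.4 to 210 against 1.46 to 12.2, with log2 changes of 3.33 ± 0.33 and 3.25 ± 0.35. Efemp1, an extracellular matrix glycoprotein, and Pea15a, a death effector domain protein, rose by 3.70 ± 0.47 and 3.05 ± 0.37. The other genes in the leading 15 were Ndufb7, Fam183b, 6330403K07Rik, Rab3b, Med28, AW551984, Ly6h and Tbca, with log2 changes of 2.47 to 2.69.

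Among 8 genes of precursor processing, 6 were tested, of which 1 was higher and 1 lower, with a median log2 change of 0.06. Pcsk1n was the higher one. Its levels were 31.1, 31.0, 21.3, 24.8 and 21.5 per 10000 in corticotropes and 7.98, 7.90, 2.18, 2.64 and 4.82 in melanotropes, a log2 change of 1.83 ± 0.31 with an adjusted p of 4.59e-07. The gene lies at chrX:7919822-7924410 on the plus strand. It was called in each of 16 alternative fits that gave a value. Pam, the enzyme that amidates peptide ends, was lower by a log2 change of -1.12 ± 0.33, with an adjusted p of 0.00299. Pcsk1, which cuts the precursor to ACTH, was sparse at 0.768 to 1.75 per 10000 against 0.312 to 1.48, and its change of -0.08 ± 0.40 did not pass, nor did those of Cpe, Scg5 and Ctsl. Cpe was higher per 10000 UMIs in 5 of 5 libraries and yet near 0 after TMM scaling, and its sign turned in 7 of 16 alternative fits.

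Of 16 granins and release genes, 11 were tested, of which 1 was higher and 5 lower, with a median log2 change of -0.28. Rab3b, a small GTPase of secretory vesicles, was the higher one, at 2.62, 2.30, 4.14, 4.59 and 3.67 per 10000 against 0.464, 0.312, 0.136, 0.315 and 0.579, a log2 change of 2.58 ± 0.36. Chga was lower in each library, at 2.82 to 9.96 against 5.04 to 17.7, with a change of -1.66 ± 0.32 and an adjusted p of 7.11e-06. Syt1, the calcium sensor of vesicle fusion, fell by 1.35 ± 0.33 and Chgb by 0.82 ± 0.32. The SNARE proteins Vamp2 and Snap25 changed by -1.05 ± 0.37 and -0.94 ± 0.32, though Vamp2 was lower per 10000 in only 2 of 5 libraries and Snap25 in 3, so the levels and the scaled fit differ in direction there. Chgb, Vamp2 and Snap25 each lost the call when a single library was left out, with adjusted p-values of up to 0.149, 0.0731 and 0.0529. The granin Scg2 stood at 11.5 to 38.6 against 7.11 to 31.6, with a change of -0.08 ± 0.30 that did not pass.

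Melanotrope transcripts that corticotropes lacked were led by Ttn, the gene of the giant muscle protein titin. No Ttn UMI was seen among 195088 corticotrope UMIs of the 5 libraries, against 1.48, 1.77, 13.2, 37.6 and 17.1 per 10000 in melanotropes, so it was at least 89.2-fold lower, taking 3 UMIs over the 5 libraries as the floor. Cacna1a, the pore subunit of P/Q-type calcium channels, was also at 0 and at least 8.86-fold lower. The long non-coding RNA Snhg11 was 0, 1.02, 1.59, 0 and 0 against 1.57, 12.1, 92.5, 13.7 and 26.8, a log2 change of -6.13 ± 0.50. The other 5 libraries, with 3 to 9 corticotropes each, were less uniform. There Snhg11 stood at 7.61 in the mt/hGRF library and at 9.51 and 2.09 in the lactating ones, against 41.2, 88.4 and 56.8 in their melanotropes, and at 0 in the other two. Ttn was 1.69 in the mt/hGRF and 1.26 in the second WT male library, and Cacna1a was 2.26 in the second WT female library, above the 0.935 of its melanotropes. Clu, a secreted chaperone, was 0 to 0.689 against 3.38 to 7.95, a change of -4.07 ± 0.44. Rbfox3, Megf11, 5330416C01Rik, Ccdc141, Limch1, Shtn1, Npepl1 and Fam46a were the other leading lower genes, with changes of -5.69 to -3.10. Gh, Prl and Cga were lower as well, by log2 changes of -2.92, -2.73 and -2.58. The globins Hbb-bs and Hba-a1 were lower too, by log2 changes of -1.40 ± 0.36 and -1.33 ± 0.41, though without the virgin library the adjusted p of Hba-a1 was 0.055. Gh, Prl and Cga are hormone genes of other lineages, and the globins are red cell genes. The source of these transcripts in corticotropes and melanotropes was not tested. The part of RNA from other cells in the other lower calls was not tested either.

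**Figure D3:**
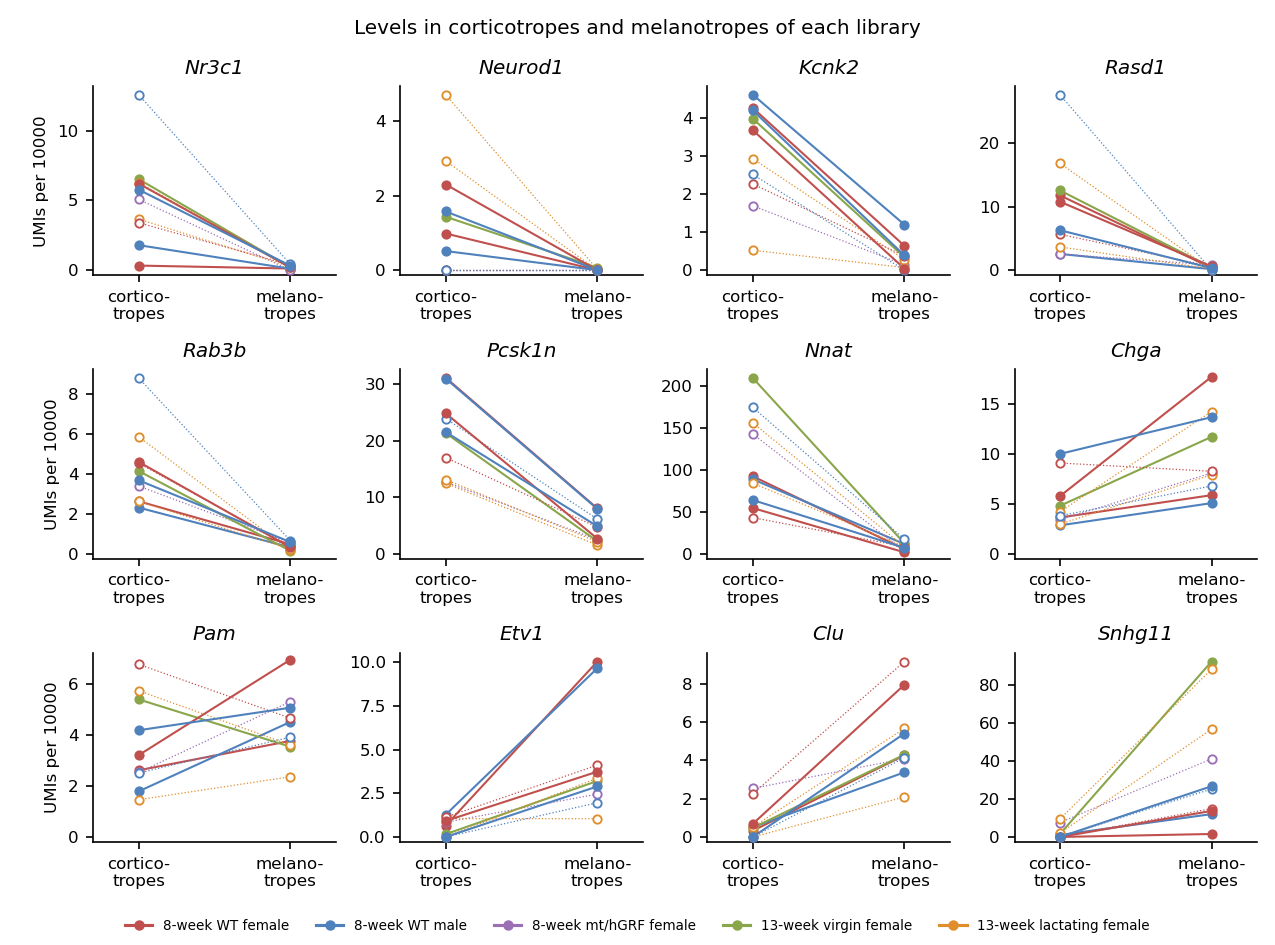
Levels of 12 genes (UMIs per 10000 of the class) in corticotropes and melanotropes; a line joins the classes of 1 library, colours mark the groups, and filled points with solid lines are the 5 libraries in the test, open points the others. Nr3c1, Neurod1, Kcnk2, Rasd1, Rab3b, Pcsk1n and Nnat lie higher in corticotropes in all 5 tested libraries, and Chga, Etv1, Clu and Snhg11 lie lower.

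Of 19 pituitary transcription factors, 4 were tested against melanotropes and 3 were lower, with a median log2 change of -2.72. The ETS factor Etv1 was 0.655, 1.28, 0.159, 0.919 and 0 per 10000 against 10.04, 9.66, 3.21, 3.74 and 2.89, a change of -3.87 ± 0.43 with an adjusted p of 2.57e-13. The classes did not overlap in these libraries. The orphan nuclear receptor Nr4a2 changed by -1.65 ± 0.38.

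Neurod1 and Nr3c1 did not pass the filter on low counts, and were tested against melanotropes only in the fit without that filter. Both genes were sparse in melanotropes, and in some libraries they were low in corticotropes as well. Binding of Neurod1 to the E-boxes of the Pomc window above, which were found by letters alone, was not tested. Neurod1 had 27 UMIs in corticotropes and 1 in melanotropes of the 5 libraries. Its levels were 0.982, 0.512, 1.43, 2.30 and 1.57 per 10000 in corticotropes and at most 0.0682 in melanotropes. The log2 change in that fit was 5.20 ± 0.82, with an adjusted p of 9.54e-08. Pou1f1, Nr4a1 and Lhx3 of the same list were called lower in that fit, by log2 changes of -3.18, -2.34 and -1.94. Over its 15787 genes, 248 were higher and 811 lower. Among the other 5 libraries, Neurod1 was at 2.93 and 4.70 in lactating corticotropes and at 0 in the mt/hGRF library and the 2 with 3 members.

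Nr3c1, the receptor of glucocorticoid feedback, stood at 0.327, 1.79, 6.52, 6.20 and 5.77 per 10000 in corticotropes and 0.116, 0.104, 0.205, 0.197 and 0.322 in melanotropes. It was higher in corticotropes in each of the 5, with a log2 change of 3.27 ± 0.46 and an adjusted p of 7.18e-10 in the fit without a filter. In the other 5 libraries it lay between 3.39 and 12.6 in corticotropes and at most 0.436 in melanotropes. The 10X female value of 0.327 was the lowest and lay inside the range of melanotropes of other libraries.

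Of 16 genes of glucocorticoid feedback, 3 were tested with the filter. The chaperones Hsp90ab1 and Hsp90aa1, which hold the receptor ready for hormone, were higher by 1.40 ± 0.30 and 0.95 ± 0.32, the second losing the call without either male library or the virgin library, with adjusted p-values of 0.0681 to 0.113. Dusp1, a phosphatase that glucocorticoids are known to induce, was lower by a log2 change of -2.05 ± 0.41. Without the filter the median over all genes was -0.82. There Fkbp5 and Klf9, also known glucocorticoid targets, were higher, by 2.10 ± 0.53 and 1.59 ± 0.49. The clock gene Per1, on the same list of glucocorticoid genes, was lower, by -2.12 ± 0.65. Fkbp4, Tsc22d3, Sgk1, Zbtb16, Nr3c2 and Hsd11b1 of that list were not called. The Fkbp5 counts were 33 UMIs in corticotropes and 18 in melanotropes.

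Of 23 genes of CRH and vasopressin signalling, 3 were tested against melanotropes and 0 passed, Gnas, Prkar1a and Plcb4 changing by 0.20 ± 0.32, 0.61 ± 0.31 and -0.10 ± 0.40. Among 14 ion channels, 5 were tested, with 1 higher and 2 lower. Kcnk2, a two-pore potassium channel (TREK-1), was 4.26, 4.61, 3.98, 3.67 and 4.19 per 10000 in corticotropes and 0.639, 1.19, 0.341, 0.0394 and 0.386 in melanotropes, a change of 2.45 ± 0.35 with an adjusted p of 4.08e-09. Cacna1d was lower by -0.95 ± 0.40, but not without the virgin or the 10X male library, with adjusted p-values of 0.326 and 0.151. Of 18 other receptors, 1 was tested, and Igf1r, the receptor of insulin-like growth factor, was lower by -1.45 ± 0.43.

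The fits on either side of 1500 UMIs took every library with 3 barcodes of each class, in place of 10, so the limit on depth and the set of libraries changed together. With that minimum and no limit on depth, 88 of 88 higher and 107 of 122 lower calls that could be tested against melanotropes remained. With at least 1500 UMIs, 246 genes could be tested, and all of the calls above that were among them remained, 88 of 88 higher and 75 of 75 lower. Below 1500 UMIs, with the same minimum of 3, only 66 genes could be tested. There 1 of 2 earlier higher calls and 6 of 47 lower calls remained, and 0 were called in the opposite direction. Xist, a lower call without this limit, stood at 0.34 there with an adjusted p of 0.639.

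Against all other kept barcodes of the same 5 libraries, 415 of 8039 genes were higher in corticotropes, or 5.16%, and 991 were lower, or 12.3%, so 17.5% in either direction, with a median log2 change over all genes of -0.44. Without the virgin library the calls fell to 216 and 609, and without the third WT female library the higher calls fell to 238. The genes that stood out were rare elsewhere in the gland. Rprml (reprimo-like) was 0.327, 1.02, 1.27, 1.61 and 1.05 per 10000 against 0.0111, 0.0378, 0.0262, 0.0660 and 0.0155, a log2 change of 4.46 ± 0.48 with an adjusted p of 2.84e-17. Tnnt1, the slow skeletal muscle troponin T, was 0.327, 2.30, 2.23, 2.30 and 7.34 against 0.0592, 0.0671, 0.139, 0.0733 and 0.140, a change of 4.06 ± 0.42 with an adjusted p of 6.05e-19. Both were also nearly silent in melanotropes, where 1 UMI of each was counted in the 5 libraries, against 22 of Rprml and 48 of Tnnt1 in corticotropes. Rprml lies at chr11:103649570-103650579 on the plus strand and Tnnt1 at chr7:4504570-4516382 on the minus strand (GRCm38).

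Rasd1 and Mt2 were among the leading genes of this comparison as well, with changes of 2.74 ± 0.28 and 3.01 ± 0.27, each called in 17 of 17 alternative fits. Nmb, the peptide neuromedin B, was uneven, at 1.64, 12.8, 2.55, 2.99 and 0.524 per 10000 against 0.229 to 0.484, a change of 2.88 ± 0.35. The other leading genes were Cbln1, Cntnap5a, Srxn1, Gm42809, Lhfpl5, Obsl1, Zfp521, Tekt1 and Gm2694, with changes of 2.77 to 3.42. Cbln1 rested on 9 UMIs and Cntnap5a on 10.

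In this comparison Neurod1 was tested in full. It was higher in each of 5 libraries, with a level of 0.0481 to 0.316 per 10000 in the rest, a change of 2.66 ± 0.47 and an adjusted p of 1.20e-06. Of 13 tested genes on the list of pituitary transcription factors, it was the only one higher, while 6 were lower. Over all genes tested, 5.16% were higher and 12.3% lower. Pou1f1, the factor of the somatotrope, lactotrope and thyrotrope lineages, was 0.327, 0.512, 0.477, 0 and 0 per 10000 against 4.04 to 5.99, a change of -4.78 ± 0.45 with an adjusted p of 7.93e-24. Gata2, a thyrotrope and gonadotrope factor, was at 0 and at least 2.04-fold lower, and Etv1 and Lhx3 changed by -1.55 and -1.42. Lhx3 did not pass without either of the third 8-week libraries, with adjusted p-values of 0.0801 and 0.128, nor did Etv1 without the 10X female library, at 0.0755. Pitx1, which acts with Tbx19 on Pomc, stood at 1.64, 0.768, 2.23, 1.15 and 2.62 against 0.750 to 1.01 and did not pass, at 0.22 ± 0.36.

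Nr3c1 was higher than in the rest in 4 of 5 libraries, at 5.77 to 6.52 in the 3 Drop-seq libraries against 0.806 to 1.20. It was 1.79 against 0.449 in the 10X male and 0.327 against 0.440 in the 10X female. Its change was 1.68 ± 0.31, with an adjusted p of 3.12e-06. Among 18 signalling genes tested, 3 were higher and 3 lower. Crem, a cAMP-responsive factor, changed by 1.93 ± 0.33, but by 1.07 with an adjusted p of 0.0987 without the virgin library. Adenylyl cyclase Adcy2 changed by 2.38 ± 0.55, but by 1.68 with an adjusted p of 0.151 without that library. The regulatory subunit Prkar1a changed by 0.82 ± 0.28 and lost the call without the 10X female, the 10X male or the virgin library, with adjusted p-values of 0.0683 to 0.190. Lower were Plcb4, Rgs2 and Prkcb, which was at 0. Plcb4 lost the call without the virgin library, with an adjusted p of 0.0863, and Rgs2 without the 10X female or the third male library, with 0.0563 and 0.064. Of 14 granin and release genes tested, Rab3b and Syt4 were higher, by 2.39 ± 0.33 and 0.76 ± 0.28, and Chgb and Vamp2 lower. Syt4 lost the call without the 10X male, the third female or the virgin library, with adjusted p-values of 0.0705 to 0.591, and Vamp2 without the 10X male library, with 0.0597. Pcsk1n rose by 1.49 ± 0.24 and Cpe by 0.73 ± 0.26 among 7 processing genes tested, but Cpe lost the call when any library other than the 10X female was left out, with adjusted p-values of 0.0836 to 0.14.

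The estrogen receptor gene Esr1 was nearly absent from corticotropes, with 1 UMI in the 5 libraries against 0.352 to 0.513 per 10000 in the rest, a change of -3.71 ± 1.02.

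Markers of the other cell types of the gland were low. Of 5 lists of such markers besides hormones and blood, every tested gene that passed was lower. These were 4 of 5 tested for the somatotrope, lactotrope and thyrotrope lineages, 2 of 2 for gonadotropes, 1 of 2 for stem and supporting cells, 2 of 2 for stroma and endothelium, and 5 of 5 for immune cells. The gonadotrope gene Spp1 lost the call without the 10X female, the 10X male or the third WT female library, with adjusted p-values of 0.0624 to 0.187. Rbpms, of the stem and supporting list, lost it without the virgin or the third male library, with 0.121 and 0.0509. H2-Ab1, C1qc and Lyz2 were at 0 and at least 31.4-, 20.8- and 13.7-fold lower. The rule itself removed barcodes with C1qa or C1qb, Gnrhr or Ghrhr, so the low immune, gonadotrope and somatotrope genes and the low hormones of those cells were in part imposed. Over the 10 libraries the summed stromal and endothelial markers reached 0.937 per 10000 at the median in corticotropes and 4.96 in the rest, with 7 of 8 genes at 0 in corticotropes. The 5 globin and red cell genes summed to 0 to 8.51 against 77.1 to 630. Of 5 proliferation markers, 3 were at 0, and their sum was at most 1.26 per 10000. All 5 tested hormone genes, Gh, Prl, Tshb, Lhb and Cga, were lower, by -4.53 to -2.84.

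Against the rest, 293 of 344 higher and 813 of 833 lower calls that could be tested remained with every library of 3 members or more and no limit on depth. With that minimum and barcodes of at least 1500 UMIs, 233 of 344 earlier higher calls and 602 of 683 lower calls that could be tested remained, and 0 were called in the opposite direction. With that minimum and barcodes under 1500 UMIs the median over all genes itself was -1.39, 11 of 263 higher calls remained and 57 were called lower, while 663 of 795 lower calls remained. Among the 57 were Prkar1a, Hsp90ab1, Fth1 and Ndufb7. Pcsk1n was at -0.63 there and Cpe at -0.73, above that median but with the sign turned, and neither passed. Rasd1 and Mt2 were higher on both sides of the limit, by 2.60 and 2.36 above it and by 2.68 and 1.34 below it.

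Several genes varied widely between libraries. Fos stood at 50.7 per 10000 in corticotropes of the mt/hGRF library and at 23.7 and 18.4 in the third WT female and male libraries, and at most at 2.09 in the other 7. Egr1 followed, at 22.8, 12.4 and 8.39, with 7.54 in the second WT male library and at most 2.09 elsewhere. Melanotropes of the same 3 libraries were also the highest for Fos, at 18.5, 12.4 and 22.1, and the rest held 4.01, 9.43 and 9.46. Egr1 was likewise highest there, at 7.77, 3.42 and 6.69 in melanotropes and 2.32, 3.22 and 3.44 in the rest, against at most 0.623 and 0.583 in the other 7. Junb was 15.8 to 17.8 in those libraries, 25.6 in the second lactating library and 13.8 in the second WT male library, but 0 to 1.31 in the other 5. In the second lactating library melanotropes and the rest held 1.00 and 0.850, and in the second WT male library 0.654 and 0.953, from 9 and 3 corticotropes.

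Crem and Srxn1, the gene of the antioxidant enzyme sulfiredoxin, showed another pattern. Crem was 11.3, 12.0 and 10.2 in corticotropes of the virgin, the second lactating and the second WT female libraries, 3.60 and 3.58 in the 10X libraries, and 0 to 0.845 in the other 5. Srxn1 was 12.9, 10.97 and 3.39 in the first 3, 4.58 and 14.3 on 10X, and 0 to 1.46 in the others. The second WT female library had 3 members. Neither gene varied in this way in melanotropes or in the pooled rest, whose smaller classes were not looked at one by one. Crem stayed at 0.354 to 1.43 and Srxn1 at 0.118 to 0.654 in melanotropes, and at 0.356 to 0.885 and 0.161 to 0.592 in the rest. The libraries with high Crem and Srxn1 included both sexes and both ages, and no group label separated them from those with low values.

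**Figure D4:**
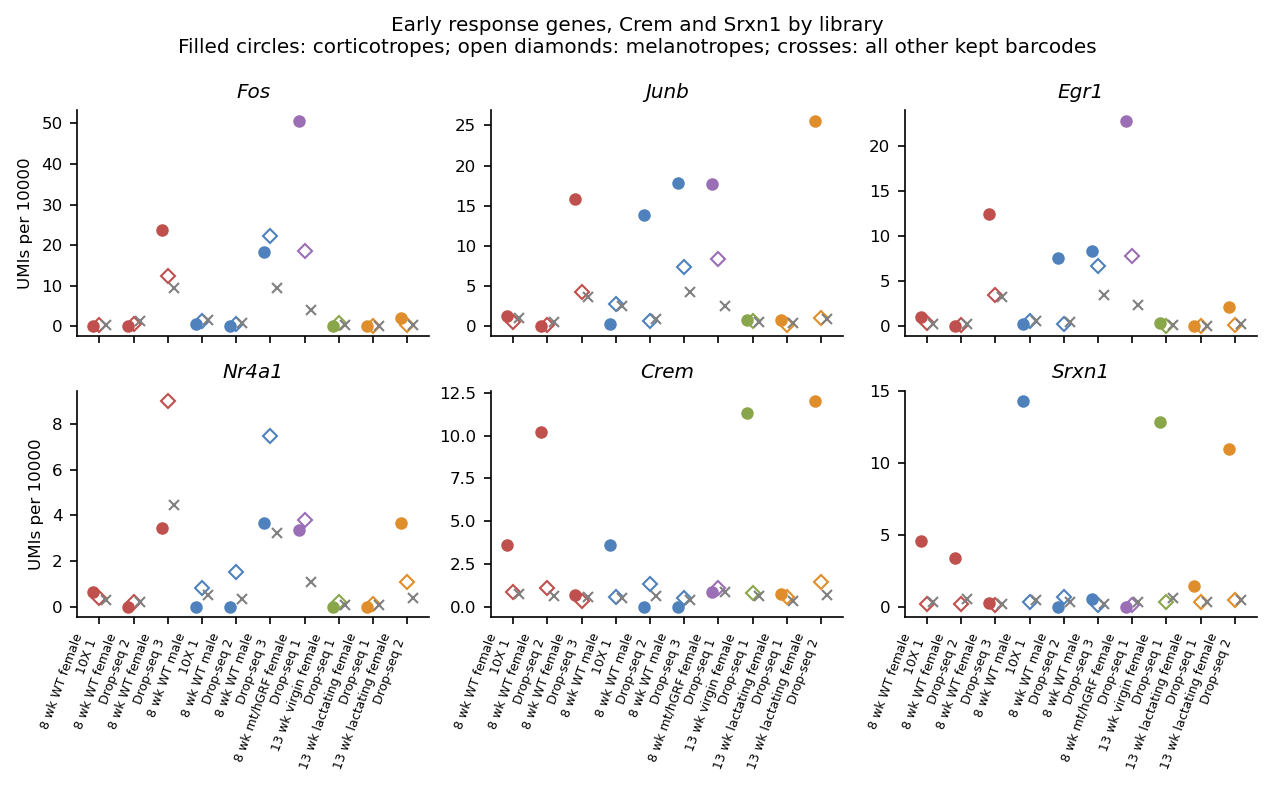
Fos, Junb, Egr1, Nr4a1, Crem and Srxn1 (UMIs per 10000) by library in corticotropes (filled circles), melanotropes (open diamonds) and all other kept barcodes (crosses). Fos peaks in the mt/hGRF library and the third WT libraries in all 3 classes, while the high values of Crem and Srxn1 are seen in corticotropes.

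To compare the sexes at 8 weeks, the 4 WT libraries with at least 10 members were fitted with platform as a covariate, which left 1 residual degree of freedom. Of 545 genes, 2 were higher in females, or 0.367%, and 0 were lower. Xist, expressed from the inactive X chromosome of females, was 88.4 and 32.2 per 10000 in females and 0 in both males. Prl was 98.6 and 44.1 in female corticotropes and 14.8 and 4.72 in male ones, a log2 change of 2.97 ± 0.58 with an adjusted p of 1.09e-04. Prl was also higher in females over the rest of the gland, at 487 and 203 against 209 and 110. In macrophages it was 54.7 and 2.79 in females and 6.70 and 2.98 in males. The part of free Prl RNA in the difference was not tested. With the 6 libraries and no minimum of members, Prl changed by 2.16 with an adjusted p of 0.227. Once female and male libraries of the same replicate number were paired, it changed by 2.43 with an adjusted p of 4.23e-05. Prl also lost the call with members of at least 3 markers in every library that held 3 of them, at 3.15 with an adjusted p of 0.541, and over the Drop-seq libraries alone with no minimum, at 1.66 with an adjusted p of 0.879. Mt1, a metallothionein, came next, at -2.03 ± 0.59 with an adjusted p of 0.121. At an unadjusted p under 0.05 there were 16 genes, and DESeq2 called 1, Prl.

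For lactation and for the transgene no library reached 10 members on the treated side, so all 8 Drop-seq libraries entered with no minimum. The single virgin and the single mt/hGRF library were assumed to vary like the other groups. Of 413 genes, 1 was called higher in lactating than in virgin corticotropes, or 0.242%, and 0 lower. This was Junb, named after its values were seen, at 0.732 and 25.6 per 10000 in the lactating libraries and 0.795 in the virgin one. Its log2 change was 4.25 ± 1.04 with an adjusted p of 0.0207. The groups overlapped, and the change was 0.09 without the second lactating library, so a single library set it. Without the third WT female library its adjusted p was 0.135, and DESeq2 called 0 genes, with 0 at an unadjusted p under 0.05. Between mt/hGRF and WT female corticotropes 0 of 413 genes were called by edgeR in either direction, with 16 at an unadjusted p under 0.05. DESeq2 called 0, with 5 at that level, and 3 were called higher without the third WT female library. The transgene fit set 9 members against 17, and both the lactation and the transgene fits leave wide errors. In simulated counts with 4-fold changes put in, they recovered 1.15% and 4.71% of the changed genes tested. Few calls thus say little about changes of that size.

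Corticotropes were 0.171% to 1.18% of kept barcodes by library. In WT females at 8 weeks the share was 0.802%, 0.372% and 1.14%, with a mean of 0.772 ± 0.386% (SD, n = 3). In males it was 1.18%, 0.361% and 0.515%, with a mean of 0.685 ± 0.435% (SD, n = 3). The sexes overlapped, the two-sided exact permutation p was 0.9, and 3 against 3 could not go below 0.1. Within platforms the order differed, with 0.802% in the female and 1.18% in the male on 10X. Virgin females had 0.634% (exact 95% interval 0.402 to 0.95%) and the lactating libraries 0.227% (0.0835 to 0.494%) and 0.171% (0.0784 to 0.325%). The excluded genes held back 2 barcodes in the virgin library and 6 and 8 in the lactating ones. With these counted as members the shares were 0.689% against 0.455% and 0.324%, so that the lactating mean was 0.565 of the virgin value, in place of 0.314. Per 100 melanotropes there were 14.3 members against 2.13 and 2.41, but melanotropes themselves were 4.44% of kept barcodes in the virgin library and 10.7% and 7.12% in the lactating ones. Members with at least 3 markers were 0.358% in the virgin and 0.0758% and 0.0571% in the lactating libraries. After every barcode was thinned to 500 UMIs, with 1592, 649 and 543 shallower barcodes left out, the shares were 0.295%, 0.151% and 0.0637%. Among barcodes with at least 700 UMIs they were 1.85%, 0.371% and 0.349%, a lactating minus virgin difference of -1.49 percentage points against -0.435 over all kept barcodes. This difference was not tested. The mt/hGRF library held 0.325%, against 0.372% and 1.14% in the WT female Drop-seq libraries. Intervals cover counting error only, and a barcode may hold more than 1 cell, since no doublet caller was run. Fewer corticotropes and fewer recovered marker UMIs per corticotrope cannot be told apart in such shares.

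**Figure D5:**
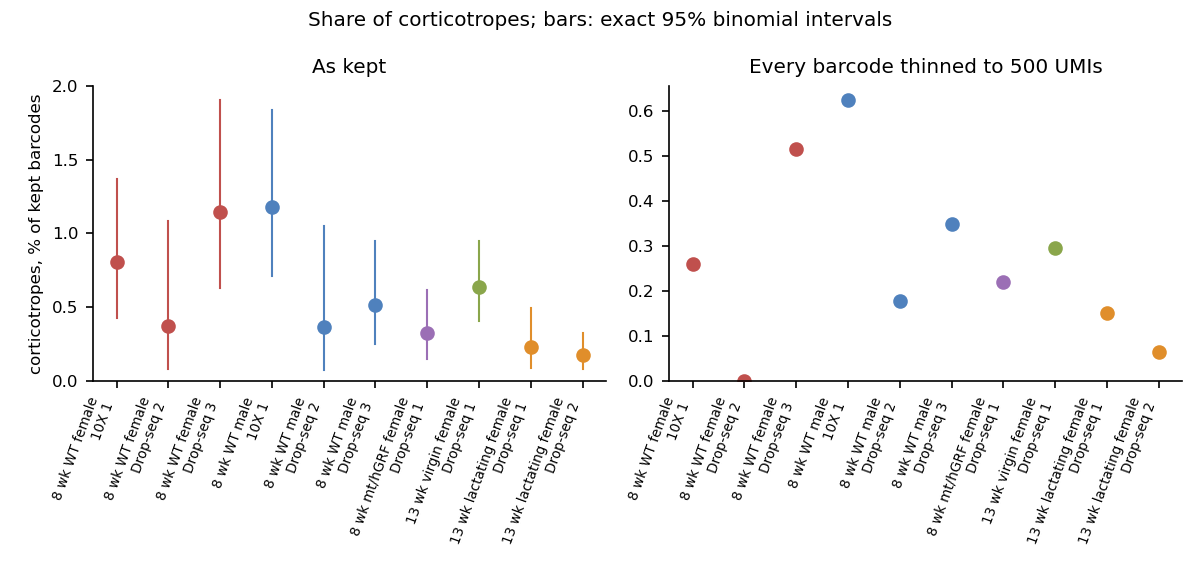
Corticotropes as percent of kept barcodes in each library, with exact 95% binomial intervals (left), and after thinning every barcode to 500 UMIs (right, no intervals); colours mark the groups. The virgin library lies at 0.634% and the lactating ones at 0.227% and 0.171%, and the sexes overlap at 8 weeks.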

How the data were processed

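Whole mouse pituitary suspensions were profiled in 2 10X and 8 Drop-seq libraries. The authors deposited tables of UMI counts per gene and barcode, unnormalized. For Drop-seq they aligned reads to mm10, kept unique exonic reads of Gencode genes on the annotated strand, and merged UMIs within 1 edit. The submitters' processing notes name STAR 2.5.2a and Cell Ranger, whose version is not given in the sources used here. Kept barcodes had at least 300 UMIs and 100 to 4000 genes (Drop-seq) or 201 to 2999 genes (10X), a mitochondrial share under 0.1 and a ribosomal pseudogene share under 0.01. Kept libraries held 807 to 5253 barcodes and 798791 to 4960260 UMIs. The Xist and Ddx3y levels of all libraries matched the labelled sex. The corticotrope rule and gene lists were chosen with earlier results of these data known.

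The deposited counts were summed per library and class and tested with edgeR 4.0.16 (glmQLFit and glmQLFTest, TMM, filterByExpr, library as block) in R 4.3.3, two-sided, with Benjamini-Hochberg adjustment over all genes tested, and called at an adjusted p under 0.05. Classes of under 10 barcodes in a library were left out. This minimum left no lactating or mt/hGRF library, so it was dropped for those comparisons after the data were seen. The genes of the rules stayed in library sizes and were not tested. The scripts were tested on simulated data. Named genes were the rule's genes, those of the lists, and the 15 largest changes in each direction among calls with the same direction in every library, some of which are not reported here. Bounds for genes at 0 used 3 UMIs over the 5 libraries. Share tests were exact permutations. Alternatives were DESeq2 1.42.0, other scaling, no filter, stricter rules, depth limits and single libraries left out. No doublets were removed.

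The sexes share replicate numbers because female and male have the same platform or the same tag in the title, whose meaning the labels do not give. Deviations from the sex means in corticotropes correlated within each same-numbered pair (r = 0.816, 0.308 and 0.663 over 324 genes). Across numbers, r was 0.270 for the second female with the third male library and 0.286 for the third female with the second male. These values lie close to the 0.308 of the second pair, so the check does not single that pair out. The first pair alone has its platform, so its r cannot separate pairing from platform. The pairing thus rests on the labels. Gene spans came from GENCODE vM21 and promoters from RefSeq, both on GRCm38. Of the members of the rule, Avpr1b, Oacyl, Ghrhr and C1qa had no promoter entry.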

Additional observations from a re-analysis of the deposited data

How the results depend on the processing

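Against melanotropes, the 336 higher and 306 lower calls fell to 158 and 188 with at least 3 markers and a minimum of 3 such barcodes a library in place of 10, 218 and 196 with barcodes of at least 700 UMIs, 166 and 96 without the library block, 112 and 117 with every library, 94 and 105 at 1500 UMIs or more, and 6 and 6 below, both with a minimum of 3. The fits with 3 markers and at 1500 UMIs thus changed 2 choices together, also against the rest. Without the filter, 811 were lower. TMM factors from abundant genes gave 304 higher and 387 lower, a move of the split toward lower calls. Against the rest, the 415 and 991 calls became 256 and 1512 without the filter, 211 and 486 at 700 UMIs, 119 and 396 without the block and 15 and 1697 below 1500 UMIs. The higher calls were 72 with 3 markers and 269 at 1500 UMIs, and the lower calls 506 with DESeq2 and 582 with Drop-seq alone. Leaving out 1 library gave 277 to 394 higher and 194 to 367 lower against melanotropes, and 216 to 424 and 609 to 853 against the rest, fewest without the virgin and most without the 10X female library.

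Below 1500 UMIs, where the median over all genes was -1.39, these log2 changes against the rest reversed: Pcsk1n -0.63, Cpe -0.73, Syt4 -0.90, Prkar1a -1.53, Crem -1.84, Hsp90aa1 -0.57, Hsp90ab1 -0.96, Efemp1 -0.43, Fth1 -1.25, Nnat -0.032, Ndufb7 -2.62, 6330403K07Rik -0.68 and Med28 -0.63. With 3 markers 6330403K07Rik was -0.055, and against melanotropes Xist was 0.34 below 1500 UMIs.

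For sex, higher calls were 1 with DESeq2, with 3 markers and with every library, and 0 with every Drop-seq library, where 1 gene was lower. The replicate block, pairing female and male libraries, gave 2 and 0 as well, but over these 4 libraries it is the same term as platform and so no separate check. Over every library it gave 2 and 0, against 1 and 0 with platform. For lactation 0 were higher with DESeq2, without the filter and with 3 markers, and 0 to 1 when 1 library was left out. For the transgene leave-one-out gave 0 to 3 higher and 0 lower. The share of females minus males was 0.0867 percentage points, but -0.0521 with no Pomc limit and -0.125 after thinning, and -0.0983 to 0.334 with 1 library left out. Lactating minus virgin was -0.435 points, -1.49 at 700 UMIs and -0.463 to -0.407 with 1 lactating library left out. The mt/hGRF difference was -0.432, from -0.817 to -0.0466 with 1 library left out, -0.0391 after thinning and -0.719 with no excluded genes. Lactating minus virgin was -0.300 with no excluded genes. The cause of these changes was not tested. The settings with 3 markers and every library, the splits at 1500 UMIs, abundant-gene TMM, the 700-UMI share and the share with no excluded genes were added after seeing the data. For sex, leaving out a library, Drop-seq alone and 700 UMIs left no residual degrees of freedom, and lactation without the virgin or the transgene without the mt/hGRF library could not be fitted.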
